A study of Mus musculus with 8 samples.

Results

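The genes of major histocompatibility complex (MHC) class II antigen presentation were followed in the corpus of the mouse stomach, the acid- and pepsinogen-secreting region. They were taken by gene symbol from a fixed list, and all 9 were found among the 54532 genes of the count table. They are the chain genes H2-Aa, H2-Ab1 and H2-Eb1, the invariant chain gene Cd74, the peptide-loading genes H2-DMa, H2-DMb1, H2-Oa and H2-Ob, and the regulator gene Ciita. Polyadenylated RNA was sequenced from 4 control and 4 mutant mice of mixed C57BL/6 and CD1 background, none of which received a treatment. All 8 mice carried 1 copy of Six2-Cre, a Cre recombinase driven by the Six2 promoter. Controls had PKAcaR wt/wt and mutants PKAcaR fl/wt, an allele of the catalytic subunit C alpha of protein kinase A (PKA) with 1 floxed copy. The allele's nature is not stated further, and neither age nor sex is given. The design calls the libraries biological replicates, and they were treated as 1 animal each. Here the question is how the class II genes compared between the corpus of the 2 genotypes.

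MHC class II molecules carry peptides from endocytosed proteins to the surface of dendritic cells, macrophages and B cells, where CD4 T cells read them. Epithelial cells, including those of inflamed stomach, are known to make them too when exposed to interferon gamma. The alpha and beta chains assemble in the endoplasmic reticulum on the invariant chain, which blocks the groove and is cut down by lysosomal proteases to a short peptide called CLIP. H2-DM then exchanges CLIP for other peptides, and H2-O, found mainly in B cells, restrains H2-DM. Ciita is the coactivator without which these genes are hardly transcribed. It does not bind DNA itself but is recruited by the RFX complex, CREB and NF-Y on a shared promoter module of an X box followed by a Y box.

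Letters of that module occur in 5 of the promoters. Of the 9 genes, 7 lie between bases 34092340 and 34316199 of chromosome 17, in coordinates as deposited. Cd74 and Ciita lie on other chromosomes. RefSeq promoter windows (GRCm38.p6, 250 bases before to 50 bases after an annotated start) were examined for 6 of the 9 genes. None was examined for H2-Ab1, Cd74 or Ciita. The 2 windows of H2-DMa have start sites 12350 and 9664 bases from the start of the gene in the count table and are not shown. Neither held the motif pair given below, on either strand. In the windows of the other 5 genes, GNAAC, the core of the X box, was followed after 24 to 27 bases by GATTGG, the Y box read by NF-Y. Each is printed from 25 bases before the first motif to 25 bases after the second, 5′ to 3′ on the strand of its gene, with both motifs in capitals. H2-Aa lies on the minus strand (chr17:34287842-34287929) and the others on the plus strand: H2-Eb1 (chr17:34305751-34305837), H2-DMb1 (chr17:34153072-34153159), H2-Ob (chr17:34238793-34238877) and H2-Oa (chr17:34092278-34092365).
H2-Aa: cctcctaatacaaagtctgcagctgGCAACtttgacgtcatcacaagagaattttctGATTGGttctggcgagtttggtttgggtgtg
H2-Eb1: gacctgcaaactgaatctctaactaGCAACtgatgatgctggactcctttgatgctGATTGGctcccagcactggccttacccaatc
H2-DMb1: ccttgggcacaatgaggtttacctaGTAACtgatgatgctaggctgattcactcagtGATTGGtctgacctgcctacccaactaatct
H2-Ob: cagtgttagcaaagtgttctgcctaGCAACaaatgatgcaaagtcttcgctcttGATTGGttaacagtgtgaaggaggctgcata
H2-Oa: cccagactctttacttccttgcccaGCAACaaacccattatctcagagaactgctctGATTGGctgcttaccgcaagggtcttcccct

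The first motif lay 76 to 94 bases before the annotated start. The pair, with 20 to 30 bases between its motifs and on either strand, was found in 0.651% of 32851 windows of 300 bases. Alone, GNAAC was found in 84.8% of windows and GATTGG in 16.1%. The motifs and their spacing were chosen after the 5 sequences had been read, and a match describes letters only.

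Reads counted per library numbered 18942308 to 22814152 in controls and 18184281 to 23814720 in mutants. Prkaca, which encodes the altered kinase subunit, lay at 77.1 to 86.0 CPM in controls and 36.9 to 40.7 CPM in mutants (CPM, read counts relative to a library size scaled with TMM factors). Its counts do not separate the 2 copies. The summed CPM of 8 genes of corpus mucosa were 314000 to 505700 in controls and 10570 to 85650 in mutants. Most of the control sums was Pgc, at 258000 to 455000 CPM. Of the 8 genes, 2 were called higher, Muc6 (log2 fold change 2.62, SE 0.52, adjusted p = 0.011) and Tff2 (1.57, SE 0.40, adjusted p = 0.0273). Of the 8 fits with 1 library omitted, Muc6 passed in 8 and Tff2 in 4. Pgc and Atp4a were called lower. The 4 genes not called also had negative log2 fold changes (-4.03 to -1.275, adjusted p 0.0584 to 0.131). Over all genes tested, 20.2% were called and 9.39% were called higher. Atp4a, a proton pump subunit of acid-secreting cells, had 9783 to 13090 CPM in controls and 444, 4.42, 1446 and 730 CPM in mutants 1 to 4 (log2 fold change -4.16, SE 1.23, adjusted p = 0.0467). Leaving out any 1 control, mutant 1 or mutant 4 ended the call of Atp4a (adjusted p at most 0.106) and that of Pgc (at most 0.079). Mutant 2 stood apart: its log2 CPM across genes had correlations of 0.819 to 0.867 with mutants 1, 3 and 4, which reached 0.966 to 0.973 between each other. Control 3 and mutant 3 held squamous transcripts of the forestomach (484 and 3776 Krt5 reads, at most 1 elsewhere).

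None of the class II genes was called. Among the 8 of 9 that passed the low-count filter, none had an adjusted p under 0.05 in either direction (edgeR quasi-likelihood test, Benjamini-Hochberg over 15862 genes), against 20.2% of all genes tested and 9.39% called higher. At an unadjusted p under 0.05 stood 2 of the 8, H2-DMb1 and Ciita, against 36.3% of all genes tested. The median log2 fold change of the 8, mutant over control, was 0.81, against 0.07 over all genes tested. Of the 8, H2-DMb1 alone had all 4 mutants above all 4 controls, a pattern seen in 14.2% of all genes tested. Mutant 2 was the highest of the 8 libraries for every one of the 9 genes. Without that library the class II median was 0.09, against 0.03 over all genes.

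**Figure D1:**
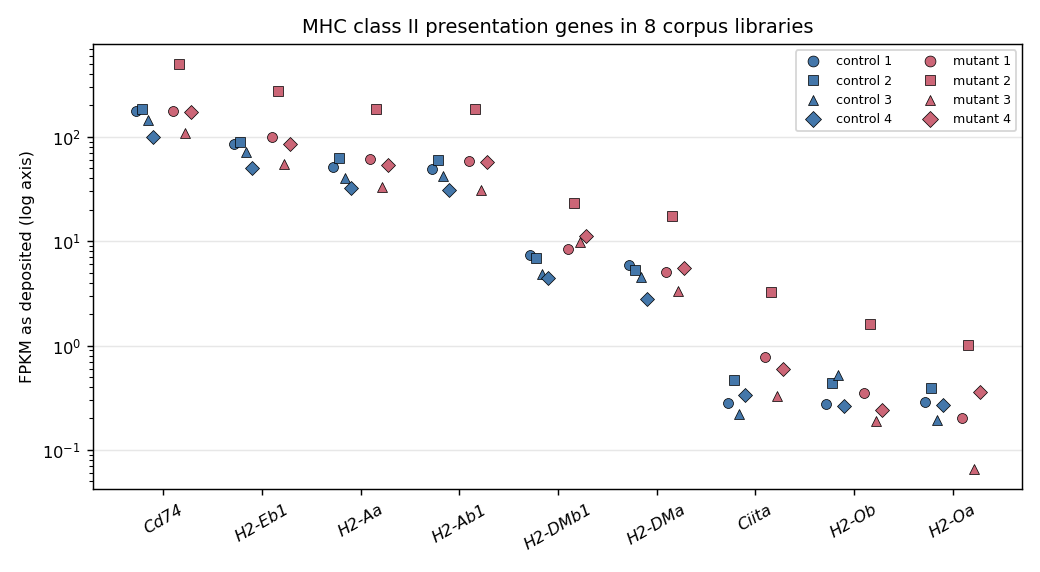
Deposited FPKM (fragments scaled per kilobase of gene and to library size, log axis) of the 9 class II genes, 1 point per library, with controls in blue and mutants in red. Mutant 2 (red square) is the highest library for every gene, and mutants 1, 3 and 4 lie mostly among the controls, except for H2-DMb1 and, in mutants 1 and 4, Ciita.

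The classical chain genes encode the molecules that present peptide. H2-Aa, the alpha chain of I-A, stood at 96.8, 119.7, 76.4 and 60.8 CPM in controls 1 to 4 and at 114.9, 351, 61.5 and 102.0 CPM in mutants 1 to 4. Mutant 2 was thus the sole library above the controls, mutant 3 lay below 3 of them, and mutants 1 and 4 fell inside their range. The log2 fold change was 0.83 (SE 0.51, adjusted p = 0.277). Without mutant 2 it was 0.07 (SE 0.27, adjusted p = 0.870).

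H2-Ab1, the I-A beta chain, followed its partner, with 81.1, 98.9, 69.1 and 50.7 CPM in controls and 97.0, 304.0, 51.1 and 95.4 CPM in mutants (log2 fold change 0.87, SE 0.51, adjusted p = 0.257). H2-Eb1, the beta chain of I-E, had 101.7, 108.2, 85.0 and 59.9 CPM in controls and 118.5, 328.0, 65.0 and 101.1 CPM in mutants (0.79, SE 0.48, adjusted p = 0.267). For both the groups overlapped. Mutants 1 and 2 were above every control for H2-Eb1, mutant 2 alone for H2-Ab1, and without mutant 2 the log2 fold changes were 0.12 (SE 0.28) for H2-Ab1 and 0.10 (SE 0.24) for H2-Eb1. H2-Ea, the I-E alpha chain gene, which the C57BL/6 haplotype is known not to transcribe, is annotated as H2-Ea-ps and had no read in any of the 8 libraries. A count of 0 allows up to 0.198 CPM in the library with the highest floor of 3 reads. Haplotypes of the CD1 part of the background were not analysed here.

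The invariant chain gene Cd74 (chromosome 18, 60803848 to 60812646) was the most abundant of the 9. Its CPM were 249, 262, 203.9 and 142.8 in controls and 253, 704, 155.4 and 246 in mutants. Mutants 1, 3 and 4 lay within the range of the controls, and mutant 2 was 2.68 times as high as the next library. The log2 fold change of 0.66 (SE 0.45) did not pass (adjusted p = 0.323), and without mutant 2 it was 0.02 (SE 0.23, adjusted p = 0.946).

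The groups lay differently for the peptide-loading chains, though neither was called. H2-DMa had 9.86, 8.89, 7.53 and 4.67 CPM in controls and 8.35, 28.7, 5.43 and 9.13 CPM in mutants, with mutants 1, 3 and 4 inside the control range (log2 fold change 0.74, SE 0.52, adjusted p = 0.337). H2-DMb1, its beta chain partner, had 11.1, 10.3, 7.28 and 6.64 CPM in controls and 12.6, 35.0, 14.5 and 16.97 CPM in mutants. All 4 mutants thus exceeded all 4 controls, and in mutant 3, where H2-DMa was below 3 controls, H2-DMb1 was 1.64 times the control mean. Its log2 fold change of 1.16 (SE 0.35) had an adjusted p of 0.0507, just outside the threshold.

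For H2-DMb1 the call turned on the choice of fit. It passed without mutant 2 (log2 fold change 0.73, SE 0.21, adjusted p = 0.0177), without mutant 1 (1.33, adjusted p = 0.0432) and without mutant 3 (1.28, adjusted p = 0.0495), and with DESeq2 (adjusted p = 0.0107) and limma-voom (adjusted p = 0.0119). H2-DMb1 is also the gene of the 9 whose reads are hardest to assign. Of its transcripts' 50-base words, 22.7% also occur in the neighbouring copy H2-DMb2, against at most 0.488% shared with any gene for the other 8. H2-DMb2 itself had 7, 16, 18 and 26 reads in controls and 64, 145, 14 and 39 in mutants and was not called (1.29, SE 0.69, adjusted p = 0.208). The H2-DMa to H2-DMb1 ratio of FPKM was 0.636 to 0.937 in controls and 0.339 to 0.740 in mutants, so that the groups overlapped.

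The H2-O genes, which restrain H2-DM, were near the limit of detection. H2-Ob had 14, 21, 26 and 14 reads in controls and 33, 124, 14 and 18 in mutants (log2 fold change 0.66, SE 0.71, adjusted p = 0.530). Without mutant 2 its log2 fold change was -0.51 (SE 0.41, adjusted p = 0.370). H2-Oa did not pass the low-count filter, with 6, 8, 4 and 6 reads in controls and 8, 33, 2 and 11 in mutants, the 2 reads of mutant 3 being under the floor of 3. For either gene mutant 2 held more reads than the other 3 mutants together.

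Ciita, the coactivator (chromosome 16, 10480059 to 10528418), had the largest log2 fold change of the 8 genes tested, though differences between genes were not tested. It stood at 2.70, 4.55, 2.11 and 3.23 CPM in controls and at 7.52, 31.5, 3.15 and 5.74 CPM in mutants. Mutants 1, 2 and 4 exceeded every control, and mutant 3 lay at the control mean (1.001 times). The log2 fold change was 1.93 (SE 0.70, adjusted p = 0.0866), and 0.80 (SE 0.34, adjusted p = 0.0887) without mutant 2. Without mutant 3 it passed (2.24, SE 0.62, adjusted p = 0.0433), as it did with DESeq2 (adjusted p = 0.0185). The Cd74 to Ciita ratio of FPKM was 299 to 655 in controls and 151 to 334 in mutants. Exons of Dexi, on the other strand, overlap those of Ciita, as Brd2 overlaps H2-DMa and BC051537 overlaps H2-Oa, and the strand setting of the counting is not given in the sources used here.

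**Figure D2:**
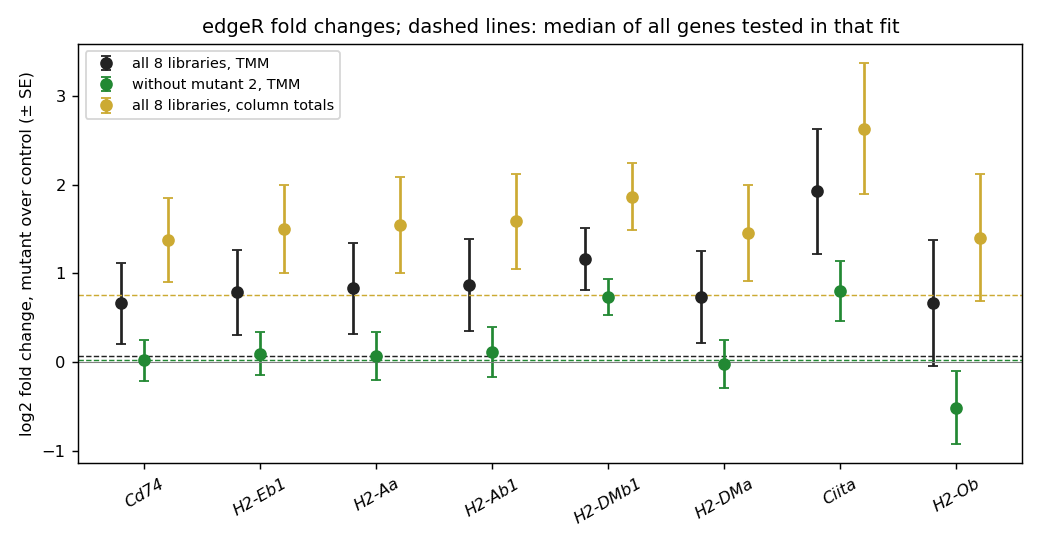
Log2 fold changes, mutant over control, with SE as bars, of the 8 class II genes tested, in 3 edgeR fits: all libraries with TMM scaling (black), without mutant 2 (green) and with column totals as library sizes (yellow). Dashed lines give the median of all genes in each fit; without mutant 2, 5 of the 8 genes lie within 0.12 of 0, while H2-DMb1 and Ciita stay near 0.7 to 0.8 and H2-Ob is at -0.51.

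Whether class II genes were called depended on the scaling. Pgc, pepsinogen C, alone took 3916296 to 7128736 reads per control and 20018 to 860695 per mutant. With column totals as library sizes the median over all 15862 genes moved from 0.07 to 0.76 on the log2 scale, and 9412 genes were called higher. The class II median was then 1.52, and 7 of the 8 genes were called higher, all except H2-Ob (adjusted p = 0.110). With either scaling of all libraries the class II median lay above that of all genes. Without mutant 2 the medians under TMM scaling were 0.09 and 0.03.

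Compared per kilobase, the 9 genes formed 3 tiers that held in both groups. The deposited FPKM were scaled nearly like TMM-scaled counts, which gave the same order. Mean FPKM in controls was 150.8 ± 37.9 for Cd74, 74.2 ± 17.96 for H2-Eb1, 46.7 ± 13.4 for H2-Aa and 45.4 ± 12.2 for H2-Ab1 (SD, n = 4). H2-DMb1 and H2-DMa followed at 5.89 ± 1.46 and 4.67 ± 1.36, and H2-Ob, Ciita and H2-Oa at 0.374 ± 0.126, 0.327 ± 0.107 and 0.286 ± 0.0834. No control of a lower tier reached a control of a higher one, and Cd74 exceeded H2-Eb1 in every control. Neighbours within a tier overlapped otherwise. In mutants the means were 239 ± 174 for Cd74, 128 ± 99.6 for H2-Eb1, 83.4 ± 69.6 for H2-Aa and 83.0 ± 68.8 for H2-Ab1. H2-DMb1 was at 13.2 ± 6.91, H2-DMa at 7.80 ± 6.44, Ciita at 1.25 ± 1.37, H2-Ob at 0.594 ± 0.672 and H2-Oa at 0.411 ± 0.423. Within each library the chain genes kept close proportions. The H2-Aa to H2-Ab1 ratio ran from 0.933 to 1.06 over all 8 libraries, and the Cd74 to H2-Aa ratio from 2.66 to 3.55.

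Levels in bulk tissue follow the number of cells as well as RNA per cell, and these cannot be told apart here. Ptprc, which encodes the pan-leukocyte surface phosphatase CD45, rose in mutants by 2.46 on the log2 scale (SE 0.71, adjusted p = 0.0443), with means of 9.10 ± 1.80 CPM in controls and 50.1 ± 57.6 CPM in mutants. Without mutant 2 it rose by 1.24 (SE 0.26, adjusted p = 0.00527), and the call was lost without any 1 control or without mutant 4 (adjusted p at most 0.119). Relative to Ptprc the Cd74 transcript was lower in mutants, with FPKM ratios of 460, 306, 319 and 186.7 in controls and 135.9, 67.3, 162.6 and 114.1 in mutants. H2-Aa gave 134.5, 105.1, 90.0 and 59.8 in controls and 46.4, 25.3, 48.4 and 35.6 in mutants. For 6 of the 8 class II genes tested this ratio was lower in every mutant than in any control, the exceptions being H2-DMb1 (3.18 to 14.4 in mutants, 8.25 to 19.5 in controls) and Ciita (0.394 to 0.596 against 0.487 to 0.784). Of all genes tested, 53.8% had ratios to Ptprc that separated in this way.

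**Figure D3:**
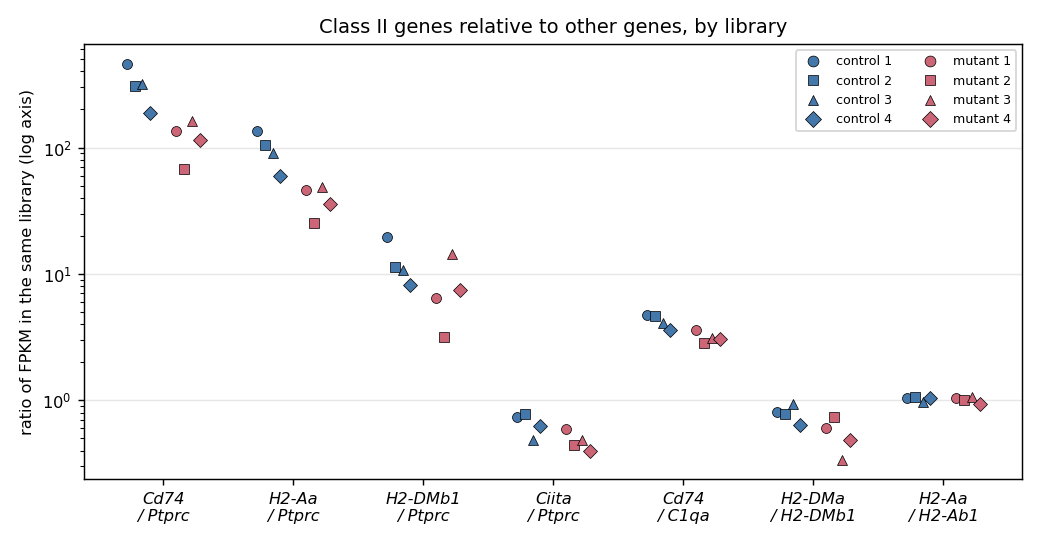
Ratios of FPKM within a library (log axis), 1 point per library, controls in blue and mutants in red. Cd74 and H2-Aa relative to Ptprc separate the groups, with Cd74 at 67.3 to 162.6 in mutants and 186.7 to 460 in controls, whereas H2-Aa relative to H2-Ab1 stays near 1 in all 8 libraries.

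Summed marker levels of cells that carry class II, and of the T cells that read it, were highest in mutant 2 as well, though single markers differed. The share called higher over all genes tested was 9.39%. Summed CPM of 11 macrophage genes ran from 235 to 281 in controls and from 251 to 1660 in mutants, and 1 gene was called higher, the Fc receptor gene Fcgr1 (log2 fold change 2.31, SE 0.67, adjusted p = 0.0438). Summed CPM of 12 dendritic cell genes were 22.2 to 34.1 in controls and 35.9 to 151.7 in mutants, with 3 of 10 tested genes higher, Itgax (1.76, SE 0.38), Irf8 (1.68, SE 0.49) and Irf4 (2.95, SE 0.84). The 7 not called were Ccr7 (1.587), Flt3 (1.145), Clec10a (1.143), Batf3 (0.514), Clec9a (-0.044), Zbtb46 (-0.20) and Cd209a. Cd209a, a lectin gene of the same list named after its values were seen, lay lower in all 4 mutants (0.234 to 0.900 CPM, mutant 2 at 0.695) than in any control (0.942 to 1.45) and was not called (-1.17, SE 0.49, adjusted p = 0.120). The 9 B cell genes summed to 1.09 to 8.26 CPM in controls and 5.09 to 71.8 CPM in mutants, where the kinase gene Blk alone was called (4.32, SE 1.23). The 9 T cell genes went from 6.38 to 9.82 CPM in controls to 8.36 to 76.5 CPM in mutants, and the 3 CD3 chains Cd3d, Cd3e and Cd3g rose (2.81, 3.28 and 3.57). Without mutant 2, Fcgr1 rose by 1.18, Irf8 by 0.99, Irf4 by 1.58 and Cd3d by 1.81. Each of the 8 calls was lost without some control (adjusted p at most 0.118): Itgax without control 1 or 3, Cd3e without control 2 or 3, and the other 6 without any 1 control. These 6 were also lost without mutant 4 (Fcgr1), mutant 1 (Blk, Cd3g) or either (Irf4, Irf8, Cd3d). No marker in these 4 lists was at 0 in all libraries. Mutant 2 had the highest summed level in each of these 4 lists and of 5 endothelial genes. The endothelial sums were 138.9 to 174.4 CPM in controls and 103.6, 651, 102.8 and 101.9 CPM in mutants 1 to 4. Mutants 1, 3 and 4 thus lay below every control, and no endothelial gene was called.

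Other tissue markers moved in all 4 mutants. For comparison, 20.2% of all genes tested were called and 9.39% were called higher. All 6 smooth muscle genes fell, with summed CPM of 2604 to 3566 in controls and 233 to 750 in mutants, among them the contractile genes Cnn1 (-3.18, SE 0.46, adjusted p = 0.00370) and Myh11 (-2.86, SE 0.44, adjusted p = 0.00453). With column totals 5 of the 6 fell, all except Tagln, and Actg2 lost its call without control 1 (adjusted p = 0.0548). Of 4 tested plasma cell genes 3 rose and 1 fell. Jchain, the joining chain of secreted antibodies, had 27.7, 15.2, 6.83 and 9.99 CPM in controls and 134.0, 566, 149.7 and 90.8 CPM in mutants (3.98, SE 0.73, adjusted p = 0.00893), and 3.06 (SE 0.48) without mutant 2. The other 2 that rose lost their calls with 1 library left out, Sdc1 without control 1, 3 or 4 and Mzb1 without control 2 or 4 (adjusted p at most 0.0652), and the 1 that fell was Derl3. Of 5 epithelial genes 1 was called. Their sum was lowest in mutant 2, at 1831 CPM against 4676 to 8150 in the other 7 libraries, and most of it was keratin transcripts. Epcam, an epithelial adhesion gene of that list, was highest in mutant 2 and rose, from 163.0 to 176.7 CPM in controls to 344, 478, 337 and 402 CPM in mutants (1.21, SE 0.14, adjusted p = 0.00177, called with each library left out). The part of any of these cells in the class II levels was not tested.

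Several genes that act before peptide loading were called. Of 11 genes of invariant chain processing and antigen proteolysis, 5 rose, 2 fell and 4 were not called, with a median log2 fold change of 0.85. Among all genes tested 20.2% were called and 9.39% were called higher, with a median of 0.07. Sppl2a, the intramembrane protease that removes the last membrane stub of the invariant chain, had 72.8, 81.9, 76.4 and 88.8 CPM in controls and 147.7, 167.7, 133.2 and 146.1 CPM in mutants. It rose in each mutant (0.90, SE 0.11, adjusted p = 0.00220) and kept its call with each library left out in turn. Ctsh, a lysosomal aminopeptidase, had 55.4, 57.9, 49.7 and 46.2 CPM in controls and 149.1, 178.6, 99.0 and 118.8 CPM in mutants. It rose by 1.38 (SE 0.19, adjusted p = 0.00287) and was also called with each library left out. Ctss, cathepsin S, which makes the final cut to CLIP in antigen-presenting cells, stood at 25.2, 30.4, 19.1 and 21.8 CPM in controls and 62.3, 226.7, 41.4 and 79.6 CPM in mutants. Its log2 fold change was 2.09 (SE 0.51, adjusted p = 0.0247), or 1.34 (SE 0.22, adjusted p = 0.00156) without mutant 2, and the call was lost without any 1 control (adjusted p at most 0.0766).

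The other 2 that rose, named after their values were seen, were the asparaginyl protease gene Lgmn (1.44, SE 0.38) and the cathepsin gene Ctsz (0.85, SE 0.22). Without mutant 2, Lgmn rose by 0.90 (SE 0.14, adjusted p = 0.000722). Its call did not hold without any 1 control or mutant 4 (adjusted p at most 0.0882), nor did that of Ctsz, which was also lost without mutant 1 (at most 0.0870). Cst3, cystatin C, a secreted inhibitor of cysteine cathepsins, had 434, 420.0, 340 and 295 CPM in controls and 180.8, 185.2, 196.3 and 199.8 CPM in mutants, a fall with no overlap (-0.97, SE 0.15, adjusted p = 0.00462). Ctsd, the aspartic cathepsin D, fell as well (-0.50, SE 0.13, adjusted p = 0.0338), and that call held only without control 4 or mutant 2 and not in the other 6 fits (adjusted p at most 0.0920). With column totals neither was called, Cst3 at -0.27 and Ctsd at 0.20. In that fit 8 genes of the list were higher, as were 9412 of all 15862 genes tested. Without mutant 2, 6 rose and 2 fell. Over the fits without 1 library 2 to 6 rose and 1 or 2 fell.

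Of 11 genes of the promoter complex that recruits Ciita and its partners, 2 subunits of the complex fell and 1 partner rose, Nlrc5. Over all genes tested, 20.2% were called and 9.39% were called higher, so these counts do not set the list apart. No RFX, CREB or NF-Y gene was called higher. Rfxank, a subunit of the RFX complex, had 22.2, 23.7, 20.4 and 21.2 CPM in controls and 10.6, 8.10, 15.2 and 12.6 CPM in mutants (-0.91, SE 0.19, adjusted p = 0.0142), with the groups apart and the call kept with each library left out. Nfyc, a subunit of NF-Y, fell by 0.41 (SE 0.11, adjusted p = 0.0292). Leaving out any 1 control or mutant 1 ended that call (adjusted p at most 0.0736). With column totals neither was called, Rfxank at -0.23 and Nfyc at 0.28. In that fit 8 genes of the list were higher, as were 9412 of all 15862 genes tested. Rfx5, the DNA-binding RFX subunit, was not called (0.59, SE 0.23, adjusted p = 0.101). Nlrc5, a relative of Ciita that serves MHC class I genes, rose by 1.98 (SE 0.53, adjusted p = 0.0328), with 2.57, 3.49, 3.70 and 5.03 CPM in controls and 8.08, 32.4, 6.73 and 11.4 CPM in mutants. Without mutant 2 the rise was 1.24 (SE 0.26, adjusted p = 0.00420), and leaving out any 1 control or mutant 4 ended the call (adjusted p at most 0.0974). Over the fits without 1 library 0 to 2 genes of the list rose and 1 or 2 fell.

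**Figure D4:**
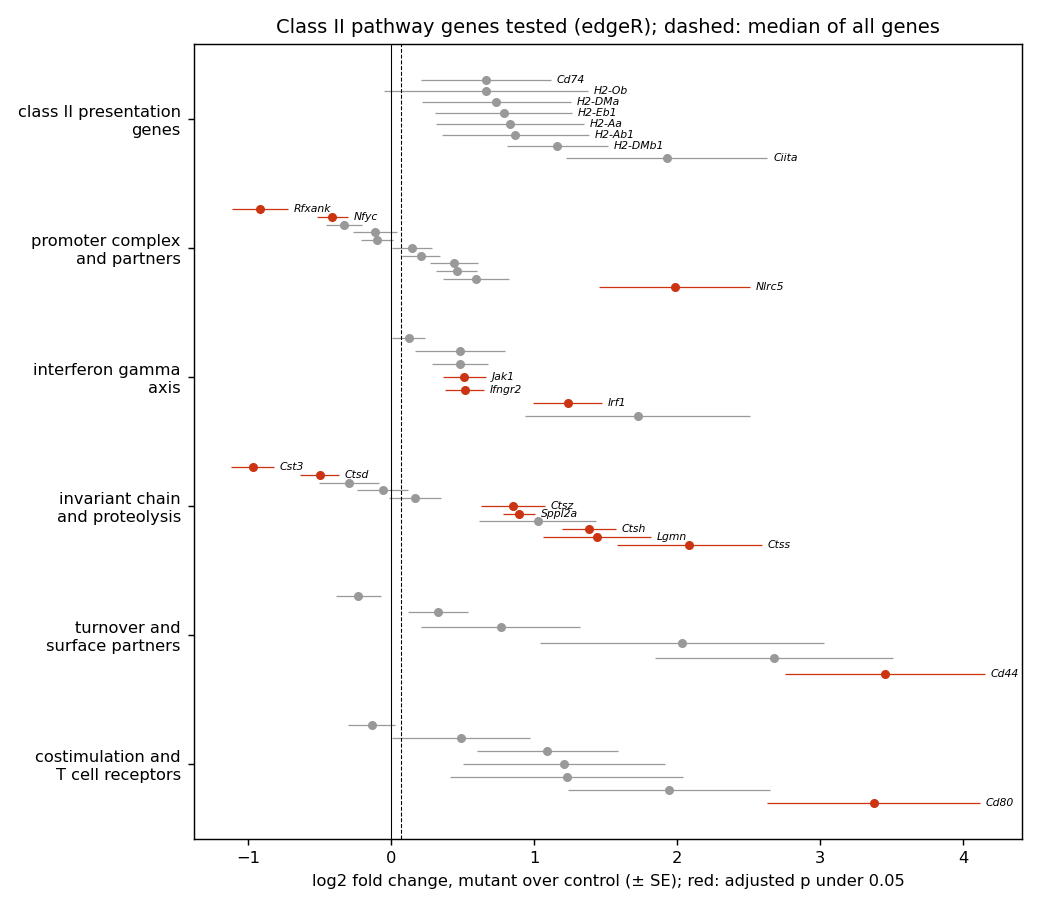
Log2 fold changes, mutant over control, with SE as bars, of the class II genes and of 5 lists of pathway genes, with genes past an adjusted p of 0.05 in red. No class II gene is red, whereas 7 of 11 genes of invariant chain processing and proteolysis are, 5 to the right of 0 and 2 to the left.

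The interferon gamma axis, which switches on Ciita, had 3 of 7 tested genes higher and none lower, against 9.39% of all genes tested higher. Irf1, a transcription factor that acts on the Ciita promoter, stood at 26.4, 29.5, 19.2 and 24.1 CPM in controls and 44.4, 87.8, 46.7 and 54.6 CPM in mutants (1.23, SE 0.24, adjusted p = 0.0112), with no overlap and a call in each fit without 1 library. The receptor gene Ifngr2 (0.52, SE 0.14, adjusted p = 0.0329) and the kinase gene Jak1 (0.51, SE 0.15, adjusted p = 0.0455) rose by less. Ifngr2 lost its call without any 1 control, mutant 1 or mutant 4, and Jak1 without any 1 control or mutant 4 (adjusted p at most 0.0738 and 0.122). Ifng itself had 3 reads in control 1 and none in the other controls, and 0, 24, 1 and 0 reads in mutants 1 to 4. It was not tested. Over the fits without 1 library 1 to 3 genes of the list were higher. With column totals 7 were, against 9412 of all 15862 genes tested.

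Of 6 genes of class II turnover and surface partners, Cd44, a coreceptor of Cd74, was the 1 called, and it rose. Across all genes tested 9.39% were called higher. It had 10.9, 14.8, 15.1 and 12.7 CPM in controls and 58.2, 391, 52.6 and 83.4 CPM in mutants. The rise was 3.45 (SE 0.70, adjusted p = 0.0125), and 2.28 (SE 0.18, adjusted p = 1.15e-05) without mutant 2. Of 7 tested genes of costimulation and T cell receptors of class II, Cd80, a costimulatory ligand, rose from 3 to 6 reads per control to 36, 175, 25 and 45 reads in mutants (3.37, SE 0.75, adjusted p = 0.0167). Cd80 lost its call without control 2, 3 or 4 (adjusted p at most 0.0555). Cd86, its relative, was not called (1.09, SE 0.49, adjusted p = 0.145), nor was Cd4, the T cell coreceptor that binds class II (1.21, SE 0.71, adjusted p = 0.251).

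Genes with the pattern most like the class II genes were found by the root mean square difference between log2 CPM profiles over the 8 libraries, each centred on its mean. Against the mean profile of the 8 tested class II genes, the nearest of 14637 other genes with a mean of at least 1 CPM were the complement genes C1qc (0.131) and C1qa (0.163), Aldh3b1, an aldehyde dehydrogenase gene (0.174), AU020206 (0.188), and Gbp2, an interferon-inducible GTPase gene (0.195). All are in log2 units, and none of the 5 was called. The class II genes' own distances from that profile ran from 0.087 for H2-Ab1 to 0.520 for Ciita, with H2-Ob at 0.437 and H2-DMb1 at 0.401. All profiles share the same libraries, among them the high values of mutant 2. C1qa had 38.7, 41.9, 36.8 and 29.3 CPM in controls and 52.0, 181.7, 37.2 and 58.9 CPM in mutants, and the Cd74 to C1qa ratio of FPKM was 3.59 to 4.75 in controls and 2.86 to 3.60 in mutants. Against the profile of Cd74 alone the nearest 5 were Apoe, H2-Q6, Ube2l6, Igtp and Sept1 (0.146 to 0.216), none of them among the first 5.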

How the data were processed

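The authors deposited raw read counts and FPKM values per Ensembl gene. The submitters' processing notes name CASAVA, fastp, STAR 2.5 and featureCounts, with no roles. No genome build, annotation or strand setting is given in the sources used here. Of 54409 genes shared with GENCODE M21 (GRCm38), 53499 had the same start and end. The control column SCI was taken as SC1. In each group the libraries differed by more than sampling noise (chi-square over degrees of freedom at least 15.4).

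Genes passing filterByExpr (15862) were tested with edgeR 4.0.16 in R 4.3.3 (TMM factors, robust quasi-likelihood, mutant over control), with Benjamini-Hochberg adjustment over all of them and a threshold of 0.05. Unless another tool is named, each adjusted p is from this test. The SE is the log2 coefficient divided by the square root of F. A floor of 3 reads was 0.180 to 0.198 CPM in controls and 0.100 to 0.129 CPM in mutants, for counting error only. Alternatives were DESeq2 1.42.0, limma 3.58.1 (voom with sample weights, and trend on log2 FPKM), other scalings and filters, the replicate number as a block, and each library left out. The fits were tested on simulated data.

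The class II genes and all lists were chosen with earlier results of these data known. Named were all 9 class II genes and H2-Ea, of each pathway list up to 4 called genes by smallest p and the largest change in the rarer direction (1 gene where none was called), of each cell list up to 3, and the 5 genes with the nearest profile. Prkaca, Krt5, Atp4a, Muc6, Tff2, Cd209a, Ccr7, Flt3, Clec10a, Batf3, Clec9a and Zbtb46 were added after their values were seen. So were Mzb1, Actg2, Tagln, Ctsd, Rfx5, Cd86, Cd4, Ifng and the genes marked so.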

Additional observations from a re-analysis of the deposited data

Results flagged for a closer look

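Dixon's criterion was applied to unlogged CPM of 18 groups (9 class II genes in controls and in mutants). In 3 of them 1 library lay farther from the others than 95% of samples of 4 would. Chance gives this in about 1 group of 20. The genes varied together across libraries, so 3 of 18 cannot be set against that rate. All 3 were mutant 2: H2-DMa at 28.7 CPM (gap over range 0.841), H2-Ob at 5.07 CPM (0.888) and Ciita at 31.5 CPM (0.846). The other class II genes were also highest in mutant 2, by 2.06 to 3.08 times the next library.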

How the results depend on the processing

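Of the 8 class II genes tested, 6 kept a positive log2 fold change in each of 19 alternatives. H2-DMa did in 18 (-0.02 without mutant 2) and H2-Ob in 15 of 17 that gave a value (lowest -0.55). Log2 fold changes ran from 0.05 to 1.54 for H2-Aa, 0.10 to 1.59 for H2-Ab1, 0.07 to 1.51 for H2-Eb1, 0.03 to 1.38 for Cd74, 0.73 to 1.87 for H2-DMb1 and 0.60 to 2.63 for Ciita. Adjusted p ran from 0.00382 to 0.128 for H2-DMb1, called in 6 alternatives, and from 0.0145 to 0.352 for Ciita, called in 3. Class II genes called higher, 0 as reported, numbered 2 with DESeq2, 1 with limma-voom, 7 with column totals, 0 without control 3 and mutant 3, and 0 to 2 with 1 library left out. None was called lower in any alternative. Of all genes, 1489 were higher and 1719 lower. These counts were 2309 higher with DESeq2, 2624 and 3067 with limma-voom, 9412 and 724 with column totals, 901 higher with log2(FPKM + 1) and no filter, and 587 and 823 without control 3 and mutant 3. With 1 library left out they ran from 665 to 2447 higher and from 1018 to 2953 lower, the highest without mutant 2. The cause of these shifts was not tested. With the replicate number as a block, 747 genes were higher and 1077 lower and no class II gene was called. The labels state no pairing, so the numbers were not taken to pair animals. Deviations of same-numbered libraries had correlations of 0.037, -0.05, 0.066 and -0.002. With 4 libraries per group and mutant 2 apart from the other mutants, such values cannot exclude pairing. Control 3 and mutant 3 shared forestomach transcripts. Depth limited H2-Oa, which had at most 8 reads per control and was not tested. H2-Ob, with 14 to 26 reads per control, was tested and not called.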
